A study of Rattus norvegicus with 138 samples.

Results

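The calcitonin gene-related peptide (CGRP) and adrenomedullin system was followed through 8 genes in 3 brainstem regions of female spontaneously hypertensive rats (SHRs) and normotensive Wistar-Kyoto (WKY) rats. The genes were taken by symbol from the deposited tables: the peptide genes Calca, Calcb and Adm, the receptor genes Calcrl and Calcr, and the receptor activity-modifying protein genes Ramp1, Ramp2 and Ramp3. They are 8 of the 32883 genes listed in each table, and 8 of 8 passed the filter on low values in each region. Bilateral punches of the nucleus of the solitary tract (NTS), the caudal ventrolateral medulla (CVLM) and the rostral ventrolateral medulla (RVLM) were sequenced as total RNA from 46 rats, giving 1 library per rat and region. There were 5 rats of each strain, WKY/NHsd and SHR/NHsd, at 8 wk, 4 and 5 at 10 wk, and 3 WKY rats and 6 SHRs at each of 12, 16 and 24 wk. All were untreated females from one supplier, and the 2 strains are inbred lines rather than littermates. By the study's staging, 8 wk is prehypertensive, 10 and 12 wk cover the onset of hypertension, 16 wk is hypertensive and 24 wk is chronic hypertension.

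CGRP is a vasodilator peptide of sensory neurons, motor neurons and some central neurons. In the rat, Calca gives rise to calcitonin mRNA or to αCGRP mRNA by alternative splicing, and counts per gene do not tell these apart, while Calcb encodes βCGRP. Adm encodes adrenomedullin, a related vasodilator made by many cell types. The calcitonin receptor-like receptor, encoded by Calcrl, reaches the cell surface only with a RAMP partner: RAMP1 makes it a CGRP receptor, and RAMP2 or RAMP3 make it an adrenomedullin receptor. The calcitonin receptor, encoded by Calcr, binds calcitonin alone and amylin or CGRP with a RAMP. These receptors signal mainly through the stimulatory G protein and cyclic AMP. The NTS receives the baroreceptor afferents, the CVLM inhibits the RVLM, and the RVLM drives sympathetic outflow.

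The sequence before the transcription start is shown for the 3 members with the largest strain differences described here, Calca, Calcrl and Ramp1. Each is the 250 bases before the RefSeq start on the gene's strand, in the GRCr8 assembly, and not the assembly to which the reads were mapped. RefSeq promoter entries were matched for 6 of the 8 members, and Calcb and Ramp2 had no entry. Capitals mark matches on either strand to 6 short motifs: the cyclic AMP response element core TGACG, the GC box GGGCGG, the TATA box TATAAA, the CCAAT box, the hypoxia response core ACGTG and the E-box CAGCTG. The first and the fifth can share letters, but no 2 different motifs overlapped in these windows.
Calca, chr1:178317530-178317779, minus strand: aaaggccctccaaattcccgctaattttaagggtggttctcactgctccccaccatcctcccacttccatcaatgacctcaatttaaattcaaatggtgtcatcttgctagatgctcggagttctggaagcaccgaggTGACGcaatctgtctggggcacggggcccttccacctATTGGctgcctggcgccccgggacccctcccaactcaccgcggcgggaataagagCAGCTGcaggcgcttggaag
Calcrl, chr3:89932617-89932866, minus strand: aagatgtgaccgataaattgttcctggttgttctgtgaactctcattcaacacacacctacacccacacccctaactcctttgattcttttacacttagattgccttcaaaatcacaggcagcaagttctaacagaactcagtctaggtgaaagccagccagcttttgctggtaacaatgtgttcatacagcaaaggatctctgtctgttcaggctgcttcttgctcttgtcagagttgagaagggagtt
Ramp1, chr9:99212866-99213115, plus strand: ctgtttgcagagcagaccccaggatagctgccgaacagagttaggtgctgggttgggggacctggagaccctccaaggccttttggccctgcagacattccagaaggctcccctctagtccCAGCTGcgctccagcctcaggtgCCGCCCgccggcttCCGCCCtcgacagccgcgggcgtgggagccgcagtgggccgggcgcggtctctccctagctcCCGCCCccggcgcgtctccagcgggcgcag
The Calca window held TGACG 112 bases before the start, CCAAT on the opposite strand 75 bases before it and CAGCTG 20 bases before it. The Ramp1 window held GGGCGG on the opposite strand at 106, 92 and 30 bases before the start and CAGCTG at 129 bases, and its GC content of 70.0% was above the median of 51.2% over all promoters. None of the 6 motifs was found in the Calcrl window, whose GC content was 43.6%. Among 33469 promoter windows of the same length, 18.2% held TGACG, 30.5% GGGCGG, 34.0% CCAAT, 12.0% CAGCTG, 12.9% TATAAA and 16.6% ACGTG. A match describes the letters only.

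Library totals ran from 5904581 to 17889417 estimated counts with a median of 10143036, and levels are given as counts scaled to the library total (CPM). Values after ± are SDs over rats. The column names of the deposited tables end in the number 1 or 2, whose meaning is not given in the sources used here. The number 2 marks all 10 wk libraries, 3 of the 5 WKY rats at 8 wk (replicates 3 to 5) and 1 SHR at each of 12 and 24 wk (replicate 6), so age 10 wk and this number are largely the same split. In the NTS of WKY rats at 8 wk, Calcrl was 17.2 and 21.5 CPM in libraries ending in 1 and 34.0 to 44.7 CPM in those ending in 2, while Ramp2 was 58.7 and 59.1 CPM against 32.2 to 34.6 CPM and Ramp3 29.4 and 33.3 CPM against 17.7 to 20.3 CPM. Each called strain difference of the 8 members within a region is therefore also given with this number as a term in the fit. The other listed genes, and the strain differences compared between regions, are given without it. In addition, 2 CVLM libraries, replicate 5 of each strain at 8 wk by title, carry an age label of 10 wk and were kept at 8 wk. Without them, Calcrl (log2(fold change) 0.59, adjusted p = 2.68e-05), Ramp1 (-0.70, adjusted p = 2.37e-07) and Ramp3 (-0.39, adjusted p = 0.0347) kept their calls in the CVLM averaged over ages, and Ramp1 at 8 wk was -0.72 (adjusted p = 0.0448).

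The punches were compared with markers of the labelled regions. The catecholamine neuron list (Th, Dbh, Pnmt, Slc6a2, Slc18a2 and Ddc) had a summed median of 333 CPM in the NTS, 336 CPM in the CVLM and 110 CPM in the RVLM (n = 46 each). The RVLM, known for its adrenergic neurons, had 18.8 CPM of Pnmt in the median library (range 0.783 to 66.1) and 9.20 CPM of Dbh (range 1.53 to 58.5). Cranial motor neuron markers (Chat, Slc18a3, Slc5a7, Isl1, Isl2, Mnx1 and Prph) summed to a median of 451 CPM in the NTS, 145 CPM in the CVLM and 1641 CPM in the RVLM. Hindbrain Hox and related medulla markers had medians of 140, 80.4 and 4.11 CPM in the same order, with Hoxb5 at a median of 0.605 CPM in the RVLM against 110 CPM in the NTS. The RVLM libraries were thus rich in motor neuron transcripts and low in Hox transcripts, in both strains.

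Differences between strains were tested at each age and averaged over the 5 ages with equal weight, in 1 model per region over its 46 libraries. A member is called where the adjusted p over all tested genes of the region is under 0.05 (edgeR quasi-likelihood test, Benjamini-Hochberg). Averaged over ages, 2 of the 8 members were called in the NTS, where 11.2% of all tested genes were called. The count was 3 of 8 in the CVLM, where 12.3% were called, and 4 of 8 in the RVLM, where 10.8% were called. Calcrl was higher in SHRs in all 3 regions, Ramp1 was lower in all 3, Calca was higher and Adm lower in the RVLM, and Ramp3 was lower in the CVLM. Calcb, Calcr and Ramp2 were called in no region. Under a stricter rule, an adjusted p of at most 0.01 with at least a 2-fold change, 2, 0 and 2 of the member and age tests passed in the NTS, CVLM and RVLM, where 1.09%, 1.13% and 1.13% of all gene and age tests did, and 0 members passed averaged over ages, where 1.45%, 1.52% and 1.56% of genes did. A fit with the replicate number within an age as a block, in which an SHR without a same-numbered WKY rat adds nothing to the strain difference, and a fit of each age alone are given beside the calls they ended. In the CVLM and RVLM the fit of each age alone also called members at ages where the main fit did not. Those added calls are not listed here. Where the values of the strains at an age are said not to overlap, this describes a few rats per group and is not a test. Some differences without overlap did not pass the test. How common such a lack of overlap was among all genes was not counted. In bulk tissue, fewer cells of a type and less RNA per cell cannot be told apart.

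**Figure D1:**
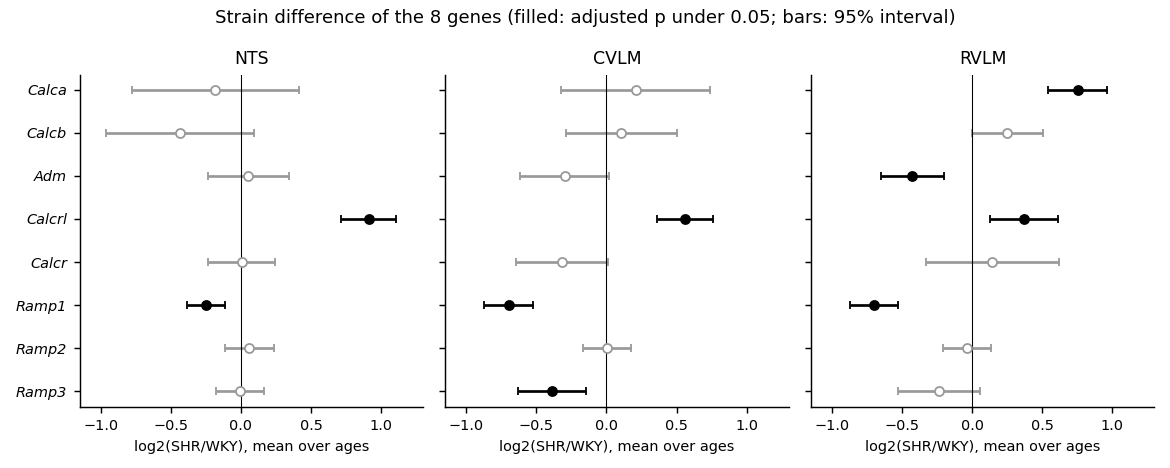
Log2(fold change) of SHRs over WKY rats for the 8 genes in the NTS, CVLM and RVLM, averaged over 5 ages (points, with 95% intervals) from the edgeR fit of 46 libraries a region, 0 meaning no difference. Filled points passed an adjusted p of 0.05: Calcrl lies to the right in each region, Ramp1 to the left, and Calca to the right in the RVLM at 0.75.

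Among the ligands, Calca was more abundant in the RVLM of SHRs than of WKY rats. The mean level was 456 ± 112 CPM in the 28 SHRs against 272 ± 66.4 CPM in the 18 WKY rats, a 1.68-fold difference (log2(fold change) 0.75, SE 0.11, adjusted p = 9.79e-07). At 8 wk, SHR libraries held 677, 400, 678, 612 and 535 CPM and WKY libraries 285, 315, 387, 295 and 320 CPM. The lowest SHR value lay above the highest WKY value. At 10 wk, SHRs had 461, 377, 490, 442 and 448 CPM and WKY rats 308, 294, 237 and 293 CPM, again without overlap. At 16 wk the 3 WKY rats had 231, 198 and 168 CPM, below the lowest of 6 SHRs at 239 CPM (highest 660). At 12 and 24 wk the groups overlapped, and 27 of 28 SHRs in all lay above the WKY median of 289 CPM.

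Tested age by age in the RVLM, Calca passed at 8 wk (log2(fold change) 0.72, adjusted p = 0.0316) and 16 wk (1.13, adjusted p = 0.00643), where 9.78% and 1.65% of genes were called. The log2(fold change) at 10, 12 and 24 wk was 0.62, 0.68 and 0.61 (adjusted p = 0.27, 0.311 and 0.244). The 8 wk call was lost without any one of SHR replicates 1 and 3 or WKY replicates 2, 4 and 5 (adjusted p 0.0515 to 0.0894), and the 16 wk call without WKY replicate 2 or 3 (0.0591 and 0.0917). With the name-ending number as a term, the value averaged over ages was 0.75 (adjusted p = 1.85e-06) while the 8 wk call was lost (adjusted p = 0.181, and 0.207 without the libraries of 8, 12, 16 and 24 wk that end in 2) and the 16 wk value was 1.13 (adjusted p = 0.00726). With the replicate block the 16 wk value fell to 0.66 and its call was lost (adjusted p = 0.838), as was the 8 wk call (0.0557), and with each age fitted alone both were lost (0.0763 at 8 wk and 0.191 at 16 wk). The averaged call held without any single rat. Motor neuron markers summed to a median of 1722 CPM in SHRs and 1623 CPM in WKY rats in the RVLM, and 0 of their 6 tested genes were called by strain. Within groups, Calca in the RVLM had r = 0.295 with this sum (n = 46). With the summed markers of the other lists, r ran from -0.606 (microglia) and -0.55 (catecholamine neurons) to 0.0913 (choroid plexus). The part of these cells in the Calca difference was not tested.

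Calcb, which lies beside Calca and shares much of its sequence, did not pass in the RVLM. Its mean was 334 ± 106 CPM in the 28 SHRs against 295 ± 92.5 CPM in the 18 WKY rats (log2(fold change) 0.25, 95% interval -0.0033 to 0.51, adjusted p = 0.264). The 2 genes tracked one another from rat to rat, with r = 0.711 over 46 RVLM libraries after group means were removed, a description in which both values come from the same library. Calca and Calcb are near-identical over the CGRP exon, so the split of reads between them depends on the authors' counting. Whether the reads were split alike in both strains was not tested.

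**Figure D2:**
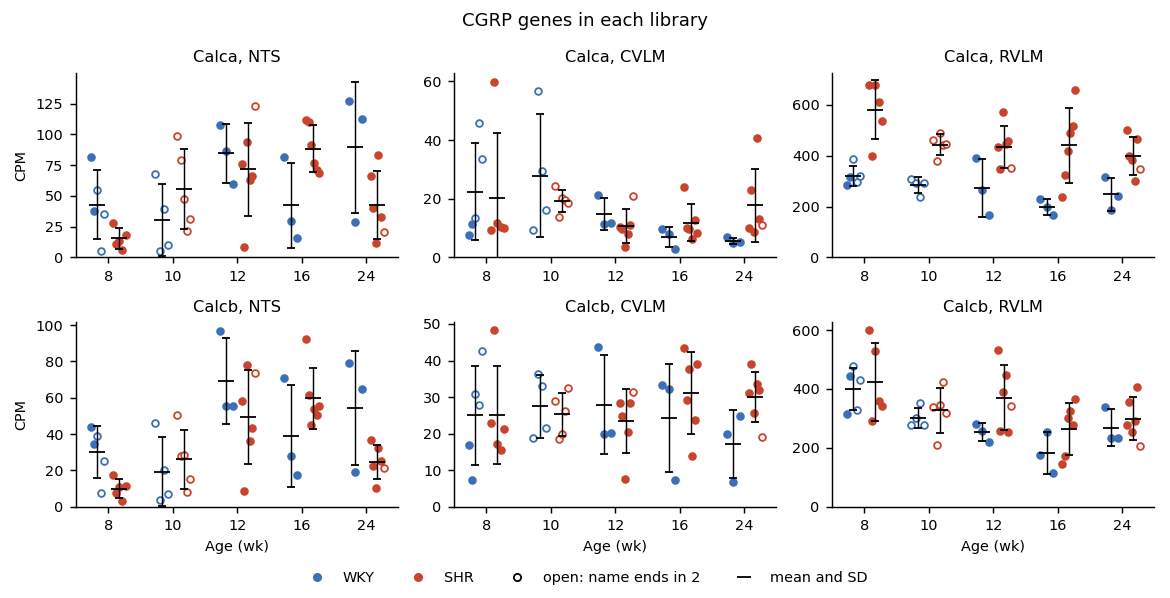
CPM of Calca (top) and Calcb (bottom) in the NTS, CVLM and RVLM against age in wk, with 1 point per library, bars at group mean and SD, and open points for libraries whose column name ends in 2. In the RVLM the SHR means of Calca, 399 to 580 CPM, lie above the WKY means, 199 to 320 CPM, while NTS points spread widely within a group.

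The ratio of Calca to Calcb counts within a library is given as a description, since it restates the values of the 2 genes and depends on the same split of reads. In the RVLM, the median ratio was 1.42 in SHRs (range 0.810 to 1.90) and 0.917 in WKY rats (range 0.675 to 1.49), and the mean ratio was higher in SHRs at 5 of 5 ages (1.45-fold averaged over ages). In the NTS the median ratio was 1.62 in SHRs and 1.39 in WKY rats, higher in SHRs at 4 of 5 ages (1.24-fold). In the CVLM it was 0.509 and 0.534 (0.98-fold).

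**Figure D3:**
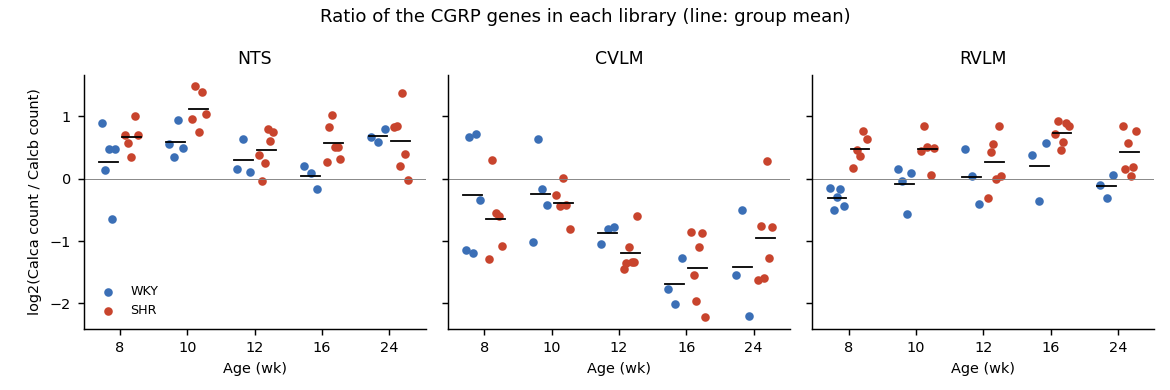
Log2 ratio of Calca to Calcb counts by age in wk in the NTS, CVLM and RVLM, with 1 point per library (46 per region) and lines at group means, 0 meaning equal counts. In the RVLM the SHR means lie above the WKY means at 5 of 5 ages, and in the NTS at 4 of 5.

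In the NTS, Calca and Calcb varied widely between rats of the same group. Calca ran from 4.85 to 127 CPM over 18 WKY rats and from 5.92 to 123 CPM over 28 SHRs, and neither gene was called at any age or on average (Calca log2(fold change) -0.18, 95% interval -0.78 to 0.42, adjusted p = 0.842). At 8 wk Calca was 28.2, 10.9, 13.7, 5.92 and 18.2 CPM in SHRs and 81.9, 38.0, 54.4, 4.85 and 34.9 CPM in WKY rats (log2(fold change) -1.43, adjusted p = 0.178). These groups overlapped through 1 WKY rat. Calcb followed Calca closely there (r = 0.956 over 46 NTS libraries), and Calca also moved with the summed motor neuron markers (r = 0.772 in the NTS and 0.765 in the CVLM, but 0.295 in the RVLM). Those markers ran from 165 to 789 CPM between NTS libraries, with medians of 418 CPM in SHRs and 495 CPM in WKY rats. Their part in the Calca values was not tested.

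In the CVLM, Calca was low in both strains, with medians of 11.2 CPM in SHRs and 11.4 CPM in WKY rats, and it was not called (adjusted p = 0.735). At 24 wk, WKY rats had 6.82, 4.83 and 5.36 CPM and the 6 SHRs 8.50 to 40.8 CPM with a median of 12.2 CPM. The groups did not overlap, yet the difference did not pass (log2(fold change) 1.58, SE 0.68, adjusted p = 0.158), at an age where 7.13% of CVLM genes were called. Calcb had means of 27.1 ± 9.32 CPM in SHRs and 24.6 ± 11.3 CPM in WKY rats (SD, n = 28 and 18, adjusted p = 0.841).

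Adm had few reads, at 3 to 146 counts a library, and it was lower in the RVLM of SHRs. The mean level there was 3.75 ± 0.876 CPM in the 28 SHRs against 4.93 ± 1.24 CPM in the 18 WKY rats (log2(fold change) -0.43, SE 0.11, adjusted p = 0.00808). At 8 wk, SHRs had 4.69, 2.32, 3.36, 2.64 and 3.05 CPM and WKY rats 5.37, 5.12, 4.0, 3.38 and 8.16 CPM (log2(fold change) -0.81, adjusted p = 0.0258). At 24 wk the 6 SHRs had 2.97 to 5.04 CPM (median 4.13) and WKY rats 6.35, 5.31 and 6.28 CPM, without overlap, but the test did not pass (-0.64, adjusted p = 0.238). Only 2 of 28 SHRs lay above the WKY median of 4.97 CPM. The 8 wk call was lost without any one of SHR replicates 2 to 5 or WKY replicate 5 (adjusted p 0.06 to 0.126), while the call averaged over ages held without any single rat and with the name-ending number as a term (-0.46, adjusted p = 0.00344). Without the libraries of 8, 12, 16 and 24 wk that end in 2, the 8 wk call was lost (adjusted p = 0.189), as it was with each age fitted alone (0.175), and with the number as a term it was -1.07 (adjusted p = 0.019). Adm was not called in the NTS (means 2.35 and 2.23 CPM, adjusted p = 0.918) or the CVLM (1.55 and 1.77 CPM, adjusted p = 0.282).

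Calcrl, the receptor that both peptides share, was higher in SHRs in all 3 regions and most so in the NTS. NTS means were 51.5 ± 11.9 CPM in the 28 SHRs (range 29.1 to 72.5) against 29.0 ± 9.43 CPM in the 18 WKY rats (range 17.2 to 44.7), a 1.88-fold difference (log2(fold change) 0.91, SE 0.099, adjusted p = 1.27e-09). Each of the 28 SHRs lay above the WKY median of 27.8 CPM. At 8 wk, SHRs had 56.3, 36.0, 47.0, 60.4 and 55.8 CPM and WKY rats 17.2, 21.5, 42.0, 44.7 and 34.0 CPM. At 10 wk the values were 56.7, 70.8, 72.5, 62.7 and 67.6 CPM against 37.5, 35.0, 40.5 and 41.6 CPM. The SHRs overlapped the WKY rats at 8 wk through 1 library and not at 10 wk.

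At the later ages Calcrl kept this order in the NTS. WKY rats had 17.6, 29.5 and 26.1 CPM at 12 wk, 20.7, 23.5 and 19.0 CPM at 16 wk and 19.0, 22.9 and 29.5 CPM at 24 wk. The 6 SHRs ran from 29.1 to 63.0 CPM at 12 wk (median 53.2), from 31.7 to 49.8 CPM at 16 wk (median 41.7) and from 43.6 to 70.5 CPM at 24 wk (median 50.1). Groups did not overlap at 16 and 24 wk and met at 1 library at 12 wk. Calcrl was the 1 member called in the NTS at each age, with log2(fold change) of 0.70, 0.74, 1.06, 0.95 and 1.11 from 8 to 24 wk (adjusted p = 0.0276, 0.0308, 0.00307, 0.0154 and 0.00224). Of all tested genes, 5.79%, 4.44%, 3.1%, 1.73% and 2.46% were called at these ages.

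Most of these calls of Calcrl at a single age rest on few WKY rats. The call at 8 wk was lost without SHR replicate 1 or WKY replicate 2 (adjusted p = 0.0576 and 0.0777), at 10 wk without any of the 4 WKY rats or SHR replicates 2, 3 and 5 (0.0548 to 0.0922), at 12 wk without WKY replicate 1 (0.0573), at 16 wk without any of the 3 WKY rats (0.0595 to 0.162) and at 24 wk without WKY replicate 1 (0.0583). The log2(fold change) in these fits was at least 0.57. Averaged over ages the call held without any single rat, and with the name-ending number as a term the difference was 0.96 (adjusted p = 2e-13). At single ages that term gave 1.26, 0.74, 0.92, 0.95 and 0.96 from 8 to 24 wk (adjusted p = 4.32e-06, 0.0023, 0.000555, 0.000454 and 0.000376), and without the libraries of 8, 12, 16 and 24 wk that end in 2 the 8 wk value was 1.48 in place of 0.70 (adjusted p = 9.7e-06). With the replicate block the 12 and 16 wk calls were lost (0.75, adjusted p = 0.112, and 0.82, adjusted p = 0.0876), and with each age fitted alone those at 8 and 12 wk (0.168 and 0.0799). The summed NTS levels of neuron markers were alike in both strains, with medians of 3028 CPM in SHRs and 3080 CPM in WKY rats, as were those of endothelial markers, at 349.6 and 350.6 CPM. Of 11 endothelial markers tested in the NTS, 2 were higher in SHRs (Cdh5 0.33 and Tie1 0.29 on the log2 scale), and of 6 markers of pericytes and smooth muscle Tagln (1.12) and Rgs5 (0.27) were higher. Of 4 astrocyte markers 0 were called there, with log2(fold change) from -0.17 to 0.13. Within groups, Calcrl moved with the summed markers of several cell types. The correlation in the NTS, CVLM and RVLM was 0.653, 0.501 and 0.732 with neuron markers and 0.566, 0.384 and 0.589 with astrocyte markers (n = 46 each). With endothelial markers the correlation was 0.263 in the NTS and 0.216 in the CVLM. In the RVLM it was also 0.644 with oligodendrocyte, 0.577 with endothelial, 0.535 with leptomeningeal, 0.533 with pericyte and smooth muscle and 0.48 with microglia markers, and in the NTS and CVLM it was -0.605 and -0.508 with medulla markers. The part of these cells in the Calcrl difference was not tested.

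In the CVLM, Calcrl averaged 28.3 ± 6.47 CPM in the 28 SHRs against 19.6 ± 5.20 CPM in the 18 WKY rats (1.47-fold, log2(fold change) 0.56, SE 0.10, adjusted p = 5.39e-05, and 0.59 with the name-ending number as a term, adjusted p = 3.88e-07). No single age passed there, with log2(fold change) of 0.20, 0.49, 0.71, 0.67 and 0.72 from 8 to 24 wk and a lowest adjusted p of 0.0557 at 24 wk. At 10 wk SHRs had 32.1, 34.9, 34.0, 34.1 and 28.4 CPM and WKY rats 24.0, 22.3, 22.5 and 22.8 CPM, without overlap, at an age where 3.18% of genes were called. In the RVLM, Calcrl averaged 24.6 ± 7.97 CPM in the 28 SHRs against 18.3 ± 5.07 CPM in the 18 WKY rats (1.29-fold, log2(fold change) 0.37, adjusted p = 0.0444). This RVLM call is marginal: it was lost without any filter on low values (adjusted p = 0.0601), with the replicate block (0.36, adjusted p = 0.0941) and without any one of 28 of the 46 rats (adjusted p up to 0.0891). With the name-ending number as a term it was 0.40 (adjusted p = 0.00675). At 10 wk in the RVLM, SHRs had 31.4, 34.4, 40.8, 28.1 and 33.0 CPM against 24.5, 16.6, 21.2 and 18.9 CPM in WKY rats, and at 8 wk the means were 19.4 and 17.1 CPM.

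By the main fit, the strain difference of Calcrl was larger in the NTS than it was in the RVLM. The call was lost in a fit without the rat as a block (adjusted p = 0.0541). It held without the rats of any 1 replicate number (adjusted p up to 0.0308). Within rats, the difference of the log2(fold changes) averaged over ages was 0.54 (SE 0.12, adjusted p = 0.00288), where 1.82% of genes were called in this contrast. Between the NTS and the CVLM it was 0.34 (SE 0.12, adjusted p = 0.274) and between the CVLM and the RVLM 0.20 (SE 0.12, adjusted p = 1).

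Calcr was not called by strain in any region. It averaged 25.4 ± 7.28 CPM in SHRs and 26.9 ± 9.41 CPM in WKY rats in the NTS (log2(fold change) 0.0050, 95% interval -0.24 to 0.25, adjusted p = 0.992). In the CVLM the means were 7.0 ± 3.08 and 8.90 ± 3.05 CPM (-0.32, 95% interval -0.65 to 0.01, adjusted p = 0.271), and in the RVLM 6.07 ± 3.44 and 5.19 ± 3.72 CPM (0.14, 95% interval -0.33 to 0.62, adjusted p = 0.788; SD, n = 28 and 18). The RVLM values spread from 0.838 to 15.9 CPM. In the NTS, the genes whose levels tracked Calcr most closely from rat to rat were Slc18a2 (r = 0.713), Dbh (r = 0.708) and Cyp1b1 (r = 0.706), of which Slc18a2 encodes the vesicular monoamine transporter and Dbh makes noradrenaline.

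Ramp1, whose product makes the receptor respond to CGRP, was lower in SHRs in all 3 regions. In the CVLM it averaged 33.8 ± 6.13 CPM in the 28 SHRs against 52.9 ± 10.4 CPM in the 18 WKY rats (log2(fold change) -0.70, SE 0.090, adjusted p = 6.08e-08). No SHR lay above the WKY median of 52.4 CPM. At 10 wk the values were 33.2, 37.3, 29.4, 28.3 and 33.6 CPM in SHRs and 57.1, 47.5, 57.2 and 44.9 CPM in WKY rats. At 16 wk the WKY rats had 52.3, 52.4 and 52.5 CPM and the 6 SHRs 27.9 to 41.0 CPM (median 35.3). The groups did not overlap at these 2 ages, while at 8, 12 and 24 wk between 1 and 2 SHRs reached the WKY range. The log2(fold change) was -0.73, -0.69, -0.73, -0.61 and -0.74 from 8 to 24 wk and passed at each age but 16 wk (adjusted p = 0.0114, 0.0376, 0.0408, 0.155 and 0.0211), where 7.64%, 3.18%, 2.62%, 2.27% and 7.13% of genes were called.

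In the RVLM, Ramp1 averaged 45.7 ± 8.46 CPM in the 28 SHRs against 73.7 ± 16.1 CPM in the 18 WKY rats (log2(fold change) -0.70, SE 0.087, adjusted p = 3.28e-08). At 8 wk SHRs had 55.8, 52.5, 33.7, 47.6 and 48.9 CPM and WKY rats 65.7, 93.0, 122, 75.6 and 82.7 CPM. At 10 wk the values were 45.4, 41.8, 41.8, 41.1 and 48.0 CPM against 60.2, 64.9, 76.9 and 74.2 CPM, and at 16 wk the 6 SHRs, at 40.1 to 59.7 CPM (median 49.8), lay below 72.5, 69.6 and 67.4 CPM. At these 3 ages the groups did not overlap. The log2(fold change) of -1.03 at 8 wk passed (adjusted p = 1.38e-04), as did -0.69 at 10 wk (0.0363) and -0.72 at 24 wk (0.0402), while -0.57 at 12 wk (0.234) and -0.49 at 16 wk (0.513) did not. The share of genes called in the RVLM was 9.78%, 2.3%, 1.7%, 1.65% and 2.24% from 8 to 24 wk.

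The Ramp1 difference at 8 wk in the RVLM held without any single rat, and so did the values averaged over ages in all 3 regions. The other single-age calls of Ramp1 did not: in the RVLM the 10 wk call was lost without any of SHR replicates 1 to 4 or WKY replicates 2 to 4 (adjusted p 0.0544 to 0.15) and the 24 wk call without any of SHR replicates 1, 2, 3 and 6 or WKY replicates 1 and 2 (0.0638 to 0.365). In the CVLM the 8 wk call was lost without SHR replicate 1 (0.0615), with the name-ending number as a term (0.114) and without the libraries of 8, 12, 16 and 24 wk that end in 2 (0.446), the 10 wk call without any of SHR replicates 1, 3, 4 and 5 or WKY replicates 1 and 3 (0.0609 to 0.137), and the 24 wk call without SHR replicate 3 or WKY replicates 1 or 3 (0.0553 to 0.16). The 12 wk call was lost without any of SHR replicates 2 to 5 or WKY replicates 1 and 3 (0.059 to 0.6), and without WKY replicate 1, at 83.0 CPM, its log2(fold change) was -0.34 in place of -0.73. The 12 wk call in the CVLM was also lost with the replicate block (-0.58, adjusted p = 0.271) and without a filter (0.0676), and the 24 wk call there without the libraries of 8, 12, 16 and 24 wk that end in 2 (0.0573). With the replicate block the RVLM calls at 10 and 24 wk were lost (0.251 and 0.293), the latter also without a filter (0.0515). With each age fitted alone the CVLM calls at 8, 12 and 24 wk (0.0744, 0.378 and 0.0997) and the RVLM call at 24 wk (0.0558) were lost. With the name-ending number as a term, the RVLM values at 8, 10 and 24 wk were -0.99, -0.69 and -0.73 (adjusted p = 0.0033, 0.0375 and 0.0405) and the CVLM values at 10, 12 and 24 wk -0.69, -0.75 and -0.75 (0.0359, 0.0374 and 0.0196). With the name-ending number as a term, the averaged difference was -0.25, -0.69 and -0.70 in the NTS, CVLM and RVLM (adjusted p = 0.0099, 1.1e-07 and 6.73e-08).

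In the NTS the Ramp1 difference was smaller, with means of 63.0 ± 8.89 CPM in SHRs and 75.1 ± 11.2 CPM in WKY rats (SD, n = 28 and 18, log2(fold change) -0.25, SE 0.068, adjusted p = 0.0101), and no single age passed. Of 28 SHRs, 2 lay above the WKY median of 75 CPM. The log2(fold change) was -0.27, -0.30, -0.38 and -0.28 from 8 to 16 wk and -0.02 at 24 wk. Compared within rats, the strain difference in the NTS was less negative than in the RVLM by 0.45 (SE 0.10, adjusted p = 0.00482) and than in the CVLM by 0.42 (SE 0.10, adjusted p = 0.0271), a contrast with 0.449% of genes called. The NTS and CVLM call was lost without the rats of replicate number 1, 2, 3, 4 or 5 (adjusted p 0.0628 to 0.292), and the NTS and RVLM call without those of number 2 (0.221). In the RVLM, Ramp1 was low where the summed markers of several cell types were high, with r of -0.654 for pericytes and smooth muscle, -0.613 for microglia, -0.561 for astrocytes, -0.555 for endothelium, -0.521 for oligodendrocytes and -0.441 for neurons (n = 46). In the CVLM these r were, in the same order, -0.168, -0.0883, -0.234, -0.124, 0.178 and -0.492. In the NTS they were -0.154, -0.402, -0.582, -0.178, -0.242 and -0.363. In the RVLM the pericyte and smooth muscle markers summed to medians of 84.2 CPM in SHRs and 64.8 CPM in WKY rats, with 3 of 6 tested genes higher in SHRs. The part of these cells in the Ramp1 difference was not tested. Between the CVLM and RVLM the difference was 0.02 (95% interval -0.18 to 0.23), in a contrast with 0 members and 0.32% of genes called.

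Calcrl and Ramp1 moved in opposite directions in SHRs, so their ratio shifted in each region. The median ratio of Calcrl to Ramp1 counts was 0.841 in SHRs and 0.399 in WKY rats in the NTS, 0.826 and 0.415 in the CVLM, and 0.533 and 0.257 in the RVLM. Within a library the ratio carries gene length, and it was given no test because it follows from the 2 strain differences above. Among rats of 1 group, Calcrl fell where Ramp2 was high (r = -0.659, -0.568 and -0.591 in the NTS, CVLM and RVLM, n = 46), and Ramp1 and Ramp2 rose together (r = 0.662, 0.737 and 0.775). These correlations include the split by name-ending number.

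**Figure D4:**
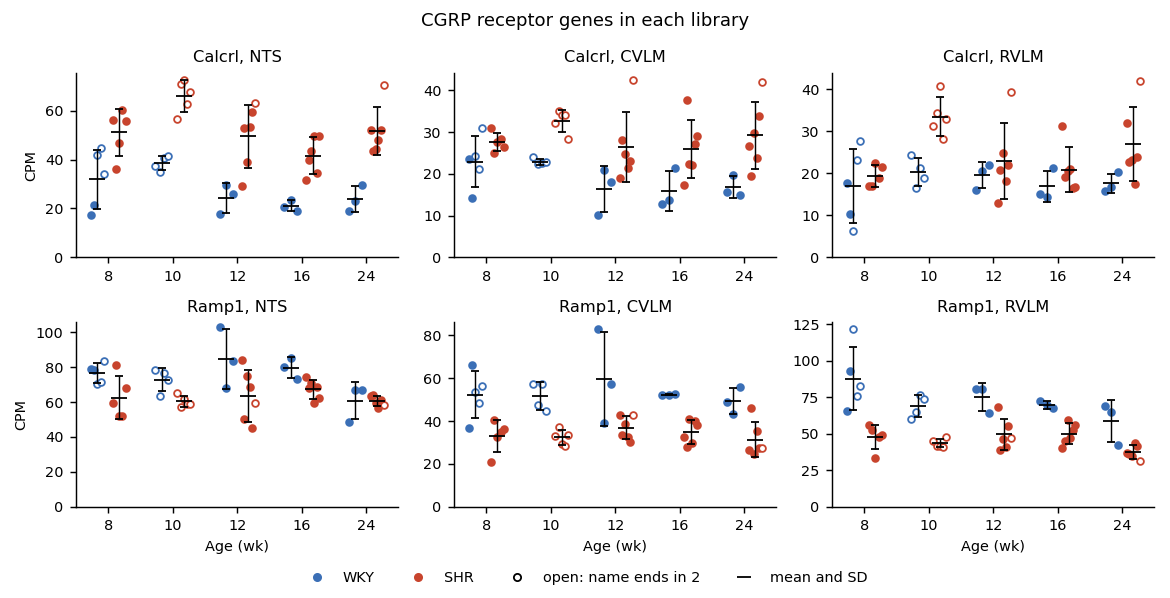
CPM of Calcrl (top) and Ramp1 (bottom) in the NTS, CVLM and RVLM against age in wk, with 1 point per library, bars at group mean and SD, and open points for libraries whose column name ends in 2. SHR points of Calcrl lie mostly above WKY points, and SHR points of Ramp1 in the CVLM and RVLM mostly below them.

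Ramp2, whose product pairs with the same receptor for adrenomedullin, did not differ by more than the error in any region. Its means in SHRs and WKY rats were 50.1 and 47.1 CPM in the NTS, 37.8 and 35.7 CPM in the CVLM and 46.8 and 46.5 CPM in the RVLM (SD 7.27 to 12.2, n = 28 and 18). The 95% intervals of the log2(fold change) were -0.11 to 0.23, -0.17 to 0.18 and -0.21 to 0.13 (adjusted p = 0.806, 0.987 and 0.862). Differences from -0.21 to 0.23 on the log2 scale thus lie within these intervals.

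Ramp3, the other adrenomedullin receptor partner, was lower in the CVLM of SHRs, with means of 5.88 ± 1.80 CPM (SD, n = 28) and 7.34 ± 2.67 CPM (SD, n = 18). The log2(fold change) averaged over ages was -0.39 (SE 0.12, adjusted p = 0.0285) and no single age passed. The call was lost without WKY replicate 3 at 10 wk (adjusted p = 0.0501), WKY replicate 3 at 16 wk (0.0609) or WKY replicate 1 at 24 wk (0.0653), and with the replicate block (-0.36, adjusted p = 0.139). With the name-ending number as a term it was -0.41 (adjusted p = 0.0119). The highest WKY value, 15.3 CPM at 8 wk, stood apart from the other 4 rats of its group at 4.71 to 5.94 CPM. In the NTS the means of Ramp3 were 26.3 and 25.6 CPM (log2(fold change) -0.0045, 95% interval -0.18 to 0.17) and in the RVLM 3.45 and 3.90 CPM (-0.24, 95% interval -0.53 to 0.05, adjusted p = 0.381).

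The strain differences were not shown to change with age. The test of the change of the strain difference over the 5 ages called 0 of 8 members in each region by edgeR, with 0 members at an unadjusted p under 0.05 and lowest adjusted p of 0.411, 0.508 and 0.869 in the NTS, CVLM and RVLM, and DESeq2 also called 0. Of all genes, 0.0145%, 0.0224% and 0.00746% were called by edgeR, and 1677, 1612 and 762 genes had an unadjusted p under 0.05. Within WKY rats, Calcrl changed with age in the NTS (adjusted p = 0.0224, with 12.5% of genes called), Calca in the CVLM (0.035, with 22.2% called) and Calcb in the RVLM (0.0479, with 6.79% called). The Calcrl call was lost without any one of 3 of the 46 rats (adjusted p up to 0.0571). The Calca call was lost without any one of 8 (up to 0.0805), and the Calcb call without any one of 30 (up to 0.133). WKY means of Calcrl in the NTS were 31.9, 38.6, 24.4, 21.1 and 23.8 CPM from 8 to 24 wk, and those of Calca in the CVLM fell from 22.4 and 27.9 CPM at 8 and 10 wk to 5.67 CPM at 24 wk. Within SHRs, Calcb (adjusted p = 0.014) and Ramp3 (0.034) changed in the NTS, with 18.7% of genes called. The Ramp3 call was lost without any one of 6 rats (adjusted p up to 0.111), while the Calcb call held without any single rat. Calcb rose in the NTS from a mean of 9.94 CPM at 8 wk to 59.7 CPM at 16 wk and stood at 24.6 CPM at 24 wk. Within SHRs 0 of 8 members were called in the CVLM, where 20% of genes were, and 0 of 8 in the RVLM, where 14.1% were, with 1 and 2 members at an unadjusted p under 0.05, and DESeq2 called 1 in each. Of all genes, 4706 of 13408 and 4045 of 13411 had an unadjusted p under 0.05 there, and DESeq2 called 3386 and 2671. With the name-ending number as a term, none of the age calls of a member remained (adjusted p = 0.135 for Calcb in SHRs, 0.883 for Ramp3, 0.983 for Calcrl, 0.681 for Calca and 0.487 for Calcb in WKY rats). Over all genes this term cut WKY calls from 1726, 2970 and 911 to 6, 54 and 6 (NTS, CVLM and RVLM). Within SHRs in the NTS it cut them from 2580 to 69, so the loss was not particular to the members. All WKY and SHR libraries at 10 wk end in 2, so the 10 wk values and the number cannot be told apart. The SHR libraries at 8 and 16 wk all end in 1, and among these Calcb in the NTS ran from 2.96 to 17.4 CPM at 8 wk and from 44.7 to 92.2 CPM at 16 wk, without overlap. These ages had the lowest and highest SHR means and were picked from the same values. The share of all genes without overlap was not counted. In the same libraries motor neuron markers summed to 191 to 245 CPM at 8 wk and 493 to 789 CPM at 16 wk. Calcb moved with that sum within groups (r = 0.736 in the NTS). The part of these cells in the Calcb values was not tested.

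Most members also differed between regions. These differences were tested within rats, with 52.5% of all genes called between the NTS and the CVLM in WKY rats and 55.7% in SHRs, and 6 and 7 of the 8 members. Between the NTS and the RVLM 62.2% and 64.4% of genes were called, with 7 and 7 members, and between the CVLM and the RVLM 39% and 44.8%, with 7 and 7 members. Each share of members lay above the share of all genes, and this excess was not tested.

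The ligand genes were highest in the RVLM. Calca in the RVLM was 6.22-fold higher than in the NTS in WKY rats and 12.0-fold higher in SHRs (adjusted p = 8.52e-13 and 5.33e-23), and 21.6-fold and 33.3-fold higher than in the CVLM. Calcb was 9.05-fold and 13.6-fold higher in the RVLM than in the NTS, and 12.6-fold and 12.8-fold higher than in the CVLM. The order for Calca was RVLM, NTS and CVLM, each step past the test in both strains, whereas Calcb did not differ past the test between the NTS and CVLM (log2 difference 0.47 in WKY rats, adjusted p = 0.0835, and -0.08 in SHRs, adjusted p = 0.74). Adm was 2.52-fold (WKY) and 1.78-fold (SHR) higher in the RVLM than in the NTS. Motor neuron markers, among the cells known to make CGRP, followed the same order of regions as Calca, and their part in the regional levels was not tested.

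The strain difference of Calca between the NTS and RVLM was -0.95 (SE 0.35, adjusted p = 0.171), so a larger regional step in SHRs was not shown. At 8 wk the strain difference of Adm was higher in the NTS, where SHR and WKY means were 2.78 and 1.83 CPM, than in the RVLM, where they were 3.21 and 5.21 CPM. The difference of the log2(fold changes) at that age was 1.47 (SE 0.37, adjusted p = 0.0382, with 0.983% of genes called). This test was added after the values were seen and was not rerun under the alternatives. At the other ages and for the other pairs of regions this edgeR test called 0 members (0 to 4 at an unadjusted p under 0.05), with 0.42%, 0.235%, 0.0142% and 0.0285% of genes called at 10, 12, 16 and 24 wk between the NTS and RVLM, 0.0498%, 0.0498%, 0.0641%, 0.00712% and 0.0427% at the 5 ages between the NTS and CVLM, and 0% to 0.0498% between the CVLM and RVLM. Over these tests 211 to 1978 of 14043 genes had an unadjusted p under 0.05. A count of 4 members arose at 8 wk between the NTS and CVLM, where 953 genes had such a p. It also arose at 24 wk between the NTS and RVLM, where 771 genes did.

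The receptor genes had another order of regions. Ramp3 in the NTS stood at 5.80 times its RVLM level in WKY rats and 6.77 times in SHRs (adjusted p = 1.52e-30 and 2.57e-39), with the CVLM between them at 1.82-fold and 1.65-fold the RVLM level. Calcr in the NTS stood at 4.49 and 4.19 times its RVLM level and at 2.68 and 3.43 times its CVLM level. Between the CVLM and the RVLM Calcr passed in WKY rats (log2 difference 0.75, adjusted p = 0.00117) and not in SHRs (0.29, adjusted p = 0.121), and the difference of those values did not pass (-0.46, SE 0.25, adjusted p = 1). Calcrl in the NTS stood at 1.31 times its RVLM level in WKY rats and 1.90 times in SHRs. Its CVLM and RVLM levels in WKY rats did not differ past the test (log2 difference -0.0061, 95% interval -0.19 to 0.18).

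Ramp1 and Ramp2 varied less between regions, by at most 1.71-fold and 1.33-fold. Ramp1 was lowest in the CVLM in both strains, 1.41-fold (WKY) and 1.39-fold (SHR) below the RVLM. In WKY rats its NTS and RVLM levels did not differ past the test (log2 difference -0.15, adjusted p = 0.107), while in SHRs the NTS was 1.23-fold higher (adjusted p = 2.17e-05). Ramp2 was lowest in the CVLM, 1.33-fold and 1.28-fold below the RVLM, and the NTS and RVLM differed by -0.17 in WKY rats (adjusted p = 0.0312) and -0.06 in SHRs (adjusted p = 0.337) on the log2 scale, the former lost without the rats of replicate number 2 or 4 (0.364 and 0.0725). The ligand genes, then, peaked in the RVLM and Ramp3 and Calcr in the NTS.

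**Figure D5:**
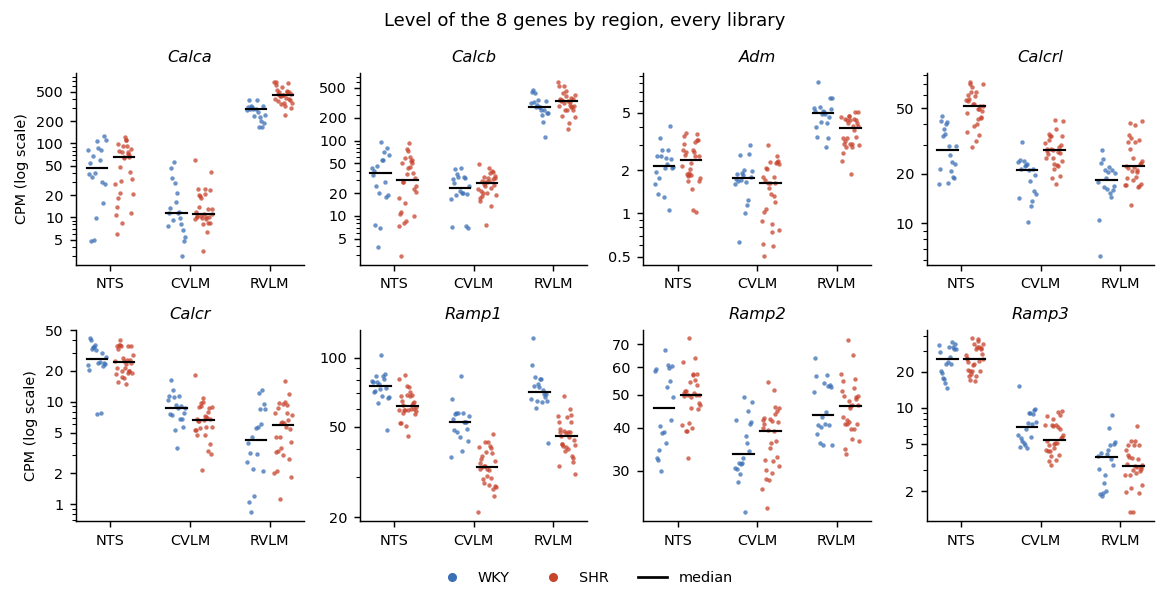
CPM of the 8 genes in the NTS, CVLM and RVLM for WKY rats and SHRs on a log axis, with 1 point per library (46 per region) and lines at strain medians. Calca and Calcb are highest in the RVLM, and Calcr and Ramp3 in the NTS.

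Beyond the members, the pathway was read through lists of related genes, with the strain difference averaged over ages. The other ligands, Adm2 and Iapp, passed the filter in no region. Of 10 coupling and decoy genes, 1 was higher in the NTS, 1 higher and 2 lower in the CVLM, and 0 were called in the RVLM. Of all tested genes, 11.2%, 12.3% and 10.8% were called in the NTS, CVLM and RVLM. The decoy or scavenger receptor gene Gpr182, reported to bind adrenomedullin, was higher in SHRs in the NTS at 1.35 against 0.458 CPM (log2(fold change) 1.61, adjusted p = 9.47e-06), as well as in the CVLM at 2.58 against 0.847 CPM (1.57, adjusted p = 1.67e-10). In the CVLM, Crcp, which encodes the CGRP receptor component protein, was lower (-0.19, adjusted p = 0.0039), as was the scavenger receptor gene Ackr3 (-0.23, adjusted p = 0.0168). The median log2(fold change) of the list was 0.02, 0.10 and 0.06 in the NTS, CVLM and RVLM, against 0.0097, -0.0030 and 0.0088 over all genes tested.

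Of 18 tested cyclic AMP pathway genes, 1 was higher and 1 lower in both the NTS and the CVLM, and 2 were higher in the RVLM. These counts lie near the share of all genes called (11.2%, 12.3% and 10.8% in the NTS, CVLM and RVLM). The adenylyl cyclase gene Adcy6 was higher and Adcy5 lower in the NTS (0.48 and -0.29) and the CVLM (0.43 and -0.28, adjusted p 6.34e-04 to 0.0215 over these 4 values). In the RVLM the cyclic AMP phosphodiesterase genes Pde4d (0.45, adjusted p = 0.0243) and Pde4a (0.27, adjusted p = 0.046) were higher. The list's median log2(fold change) was 0.02, 0.05 and 0.11. Of 10 tested peptide processing genes, the prohormone convertase gene Pcsk1 was lower in the NTS (-0.27, adjusted p = 0.0302) and the granule protein gene Chga in the RVLM (-0.21, adjusted p = 0.0235), with 0 called in the CVLM. In no region did this list exceed the share of all genes called.

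Other receptors known to bind RAMPs were tested at 8 genes in the NTS and 7 in the CVLM and RVLM. The corticotropin-releasing hormone receptor gene Crhr1 was higher in SHRs in the NTS (5.54 against 4.01 CPM, log2(fold change) 0.56, adjusted p = 0.00226) and the RVLM (6.82 against 3.27 CPM, 0.97, adjusted p = 1.48e-07). The secretin receptor gene Sctr was lower in the NTS (-0.92, adjusted p = 0.0163), the estrogen receptor gene Gper1 was higher in the RVLM (0.41, adjusted p = 0.00498), and 0 of 7 were called in the CVLM. Of all tested genes, 5.66%, 5.28% and 5.84% were called higher in SHRs and 5.51%, 7% and 4.98% lower in the NTS, CVLM and RVLM.

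Markers of the other cell types in the punches were counted in the same way. Astrocyte markers had 0 of 4 genes called in each region, and catecholamine neuron and motor neuron markers had 0 called in each region. Neuron markers had 1 of 6 lower in the NTS and 0 called elsewhere, microglia markers 1 of 4 lower in the CVLM, and oligodendrocyte markers 1, 3 and 2 of 4 lower in the NTS, CVLM and RVLM. Endothelial markers had 2 of 11 higher in the NTS, 0 in the CVLM, and 2 higher and 1 lower in the RVLM. Pericyte and smooth muscle markers had 2, 1 and 3 of 6 higher in the NTS, CVLM and RVLM, and leptomeningeal markers 0 called in each. Choroid plexus markers had 3 of 5 lower in the NTS, where 1 WKY library held 4852 CPM of them against a median of 5.23 CPM, and 1 of 2 higher in the CVLM. Medulla markers had 1 of 6 lower in the NTS, 1 of 4 lower in the CVLM and 0 of 2 called in the RVLM. The part of these cells in the strain differences of the 8 genes was not tested.

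The genes whose levels were most like each member's were found by the correlation of log2 CPM over 46 libraries after group means were removed, in the region where the member was highest. For Calcrl in the NTS they were Add3 (r = 0.885), Aqp4 (r = 0.866), the astrocyte water channel gene, and Folh1 (r = 0.864). For Ramp1 in the NTS they were Rexo2, Tmem120a and Txnl4a (r = 0.831 to 0.839), for Ramp2 Coprs, Dap3 and Rpl34 (r = 0.822 to 0.843) and for Ramp3 Gpx3, Fam173a and Hpcal1 (r = 0.804 to 0.833). In the RVLM, Calca was most like Fam206a (r = 0.734), Apip (r = 0.719) and Calcb (r = 0.711), and Adm most like Rtfdc1, Sae1 and Rasd1 (r = 0.616 to 0.651). Libraries share depth and the name-ending number in these values, which are descriptions.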

How the data were processed

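RNA-seq was made by the study from bilateral punches of 3 brainstem regions of 46 rats, 1 library per rat and region. Per the labels and the study's methods, reads were mapped with STAR to the rat rn6 genome and counted with RSEM at default settings. The deposited values are estimated counts (RSEM expected counts) per gene, not normalized, of which 4.95% are not whole. They were rounded before fitting. A batch correction is named in the methods, but whether it bears on the deposited tables is not given in the sources used here. Overlapping and antisense genes may share reads.

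Groups were strain and age as labelled. Genes with a largest rlog value (DESeq2 1.42.0, R 4.3.3) of at least 3.5 in a region were tested, which kept 13793, 13408 and 13411 of 32883 genes in the NTS, CVLM and RVLM. Strain differences, changes with age and their interaction came from edgeR 4.0.16 (TMM factors, quasi-likelihood F-test), 1 fit per region over 10 groups, with Benjamini-Hochberg adjustment over all genes of the region. Regions were compared in 1 joint fit over the libraries of all regions and 14043 genes with the rat as a block. SDs are over rats, and 95% intervals are estimates ± the normal quantile times SE. Correlations used log2 CPM with a prior count of 2. The fits were tested on simulated data with known changes.

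The 8 genes and the gene lists (ligands, coupling and decoy genes, cyclic AMP pathway, peptide processing, other RAMP-binding receptors and cell type markers) were chosen with earlier results of these data known. All 8 were named. From each pathway list at most 2 called genes per direction and region were named by smallest p, and for 7 members the 3 most correlated genes in the region of highest mean CPM. Alternatives tried were DESeq2, other normalization and filters, a stricter threshold, each age alone, the name-ending number, a replicate block, and leaving out each rat. RefSeq promoters come from GRCr8. No protein sequence was used here.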

Additional observations from a re-analysis of the deposited data

Results flagged for a closer look

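In 13 of 168 groups of 4 to 6 libraries, 1 library stood further from its nearest neighbour than the 95% limit of Dixon's test allows, where chance alone gives 5% or about 8.4. In the CVLM of SHRs at 8 wk, replicate 2 held 59.71 CPM of Calca (next 11.73), 48.34 CPM of Calcb (next 22.86) and 18.29 CPM of Calcr (next 6.835). Its motor neuron markers summed to 201 CPM, against 93.9 to 153 CPM in the other 4 rats, and their part in these values was not tested. In the CVLM of WKY rats at 8 wk, replicate 2 held 42.1 CPM of Ramp2 (next 31.72) and 15.3 CPM of Ramp3 (next 5.938), and replicate 5 was the lowest for Adm at 0.6309 CPM (next 1.61). Replicate 1 of the SHRs at 8 wk was the lowest for Ramp2 in the CVLM, at 26.64 CPM (next 39.99).

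Of the other groups in the CVLM, SHR replicate 1 at 16 wk held 24.1 CPM of Calca (next 12.85), and SHR replicate 6 at 24 wk was the lowest for Adm at 0.7728 CPM (next 2.188). In the NTS, SHR replicate 1 at 16 wk held 92.17 CPM of Calcb (next 61.57), and SHR replicate 6 at 24 wk held 70.54 CPM of Calcrl (next 51.99). In the RVLM, SHR replicate 1 at 16 wk held 31.3 CPM of Calcrl (next 21.1), and SHR replicate 1 at 12 wk held 71.88 CPM of Ramp2 (next 47.82). Replicate 6 of the SHRs at 24 wk and replicate 5 of the WKY rats at 8 wk are libraries whose column names end in 2, and the other members of their groups end in 1 in whole or in part.

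The strain difference itself differed between regions, by the joint edgeR fit within rats, in 4 cases. For Ramp1 the NTS value exceeded the CVLM value by 0.4249 (adjusted p = 0.0271) and the RVLM value by 0.4488 (adjusted p = 0.00482), on the log2 scale. For Calcrl the NTS exceeded the RVLM by 0.5409 (adjusted p = 0.00288), and for Adm at 8 wk by 1.469 (adjusted p = 0.0382). Of 6 fits that left out 1 replicate number, 5 lost the Ramp1 call between the NTS and CVLM (adjusted p up to 0.292). The Ramp1 call between the NTS and RVLM was lost in 1 of them (0.221). The Calcrl call was lost without the rat as a block (0.0541). The Adm test was added after the values were seen and was not rerun under the alternatives.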

How the results depend on the processing

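No result changed direction past its threshold under the alternatives run, and averaged over ages the calls of Calcrl in the NTS and CVLM, Ramp1 in all 3 regions, and Calca and Adm in the RVLM held without any single rat. Of 5 single-age calls in the NTS, 3 were left with each age fitted alone and 2 at an adjusted p of at most 0.01 with a 2-fold change. Of 4 in the CVLM, 2 were left without the libraries of 8, 12, 16 and 24 wk whose names end in 2 and 0 at the stricter threshold, and of 6 in the RVLM, 2 were left with a replicate block and 2 at the stricter threshold. With each age fitted alone, only the Ramp1 call at 10 wk (adjusted p = 0.0027) was left of those in the CVLM. Of those in the RVLM, only Ramp1 at 8 and 10 wk (0.0386 and 0.00173) was left in that fit. Averaged over ages, the stricter threshold left 0 of 2, 0 of 3 and 0 of 4 calls in the NTS, CVLM and RVLM, which follows from its fold limit. Leaving out each rat gave, for NTS, CVLM and RVLM, 4 to 6, 3 to 5 and 4 to 7 single-age calls and 2 to 2, 2 to 3 and 3 to 4 calls averaged over ages. The changes with age within WKY rats (1 call in each region) became 3 with DESeq2, 2 with DESeq2 size factors, 2 with filterByExpr, 0 with the name-ending number as a term and 2 without the libraries that end in 2 in the NTS, 0 without a filter and 0 with the number in the CVLM, and 3 with DESeq2 and 0 without a filter, with the number or without those libraries in the RVLM. Within SHRs, the 2 calls in the NTS became 4 with DESeq2, 0 with the number and 4 without those libraries, and the 0 calls in the CVLM and RVLM became 1 with DESeq2 and 1 without those libraries in each. Leaving out each rat gave 0 to 3 calls within WKY rats in each region, and 1 to 4, 0 to 1 and 0 to 1 within SHRs. With the number as a term, 6 to 91 of all tested genes had an age call per strain and region. The cause of these shifts was not tested. The differences between regions in the strain difference fell from 1 to 0 calls (NTS and CVLM) and from 2 to 1 (NTS and RVLM) with no replicate block, that is, without the rat as a block, and leaving out each replicate number gave 0 to 1, 1 to 2 and, for the CVLM and RVLM, 0 to 0. These leave-one-out fits used the dispersion trend of the full fit. The labels do not say that a replicate number marks a shared litter, batch or day. Same-numbered rats correlated over 0.1 in 32 of 54 pairs (-0.333 to 0.554), and 22 of 54 correlated best with their own number. Every pair was over 0.1 at 12 and 24 wk in the NTS and at 10 and 12 wk in the CVLM, and not in the other sets of region and age, so the pairing is a hint from the data that holds in part. With the replicate block, Calcrl in the RVLM (adjusted p = 0.0941) and Ramp3 in the CVLM (adjusted p = 0.139), averaged over ages, were not called. WKY groups of 3 rats at 12, 16 and 24 wk and the low counts of Adm limit what single ages can show.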
